A study of Homo sapiens with 6 samples.

Results

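The genes examined here encode the core machinery that makes microRNAs and carries out silencing by them: DROSHA, DGCR8, XPO5, DICER1, TARBP2, AGO1, AGO2, AGO3, TNRC6A and TNRC6B. They were chosen by symbol, and 10 of the 50868 genes in the deposited table carried these symbols. Their levels were read from RNA-seq libraries of Huh7, an established human hepatoma cell line. The overexpression group held 3 libraries of Huh7 cells given an overexpression plasmid for hsa_circ_0098181, a circular RNA made from exons of SOX5, and the control group held 3 libraries of Huh7 cells given the control plasmid. Both plasmids were delivered with a Lipofectamine reagent, and total RNA was taken after 48 h. The libraries measure long RNA and do not measure mature microRNAs. All cells are of 1 line, plasmid delivery is transient, and no label says that the replicates were separate cultures, so p-values measure only the spread between these libraries, which may be technical.

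MicroRNAs are cut from long primary transcripts in the nucleus by the microprocessor, which is the RNase III enzyme DROSHA with its RNA-binding partner DGCR8. Exportin 5, the product of XPO5, carries the hairpin to the cytoplasm, where DICER1 with its partner TARBP2 cuts it again. The mature strand is loaded into an argonaute protein (AGO1 to AGO4), and a GW182 protein (TNRC6A to TNRC6C) bound to argonaute recruits the deadenylases that shorten the poly(A) tail of the target. The study tested miR-18a-3p as a microRNA bound by hsa_circ_0098181, with target prediction, RT-qPCR and a dual-luciferase reporter assay among its evidence. It also used an antibody against AGO2 to ask whether the circular RNA and miR-18a-3p each associate with that protein. The question asked here of the sequencing data was whether the transcripts of this machinery differed in level between cells with the overexpression plasmid and cells with the control plasmid.

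The sequence of miR-18a-3p (RefSeq, GRCh38.p14, chr13:91350797-91350819, + strand) is shown because 3 of the 10 genes carry a match to its seed in the 3′ UTR. Capitals in the microRNA mark its seed, bases 2 to 8, and capitals in the transcripts mark the 7 bases that pair with it, AGGGCAG, with 11 bases on either side. The matches lie at chr1:35928944-35928950 in AGO1, chr1:36060501-36060507 in AGO3 and chr22:40331763-40331769 in TNRC6B, all on the + strand of GRCh38, in the 3′ UTR of the longest coding transcript of GENCODE 29, and only the strand of the transcript was searched.
hsa-miR-18a-3p: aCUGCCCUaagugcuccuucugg
AGO1: caccaggtatgAGGGCAGagttttagctt
AGO3: tgaatttgccaAGGGCAGtgatttttatg
TNRC6B: gtggggaggagAGGGCAGaaaggggaagg
The same 7 bases occurred in the 3′ UTR of 18.9% of the 12609 tested genes with a 3′ UTR model. Among the 1635 of them with a 3′ UTR of at least 4000 bases the share was 44.5%. The 3′ UTRs of AGO1, AGO3 and TNRC6B are long, with 10921, 16755 and 12566 bases. AGO2, with 11888 bases, and DICER1, with 4270 bases, had no match. A match is a description of the letters and not a site shown to be used.

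A microRNA hairpin also lies within a transcript of the machinery itself. The hairpin of MIR3618 occupies chr22:20085746-20085833 on the strand of DGCR8, and 88 of its 88 bases fall in annotated exons of DGCR8, none of them coding. Its mature sequence (RefSeq, GRCh38.p14, chr22:20085797-20085818, + strand) is printed with the seed in capitals because DROSHA and DGCR8 are known to cut hairpins in the DGCR8 transcript.
hsa-miR-3618: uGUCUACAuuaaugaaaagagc
The hairpin of MIR1306 overlaps DGCR8 exons by 85 bases, and that of MIR3173 lies in an intron of DICER1.

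Library totals ran from 11130902 to 14138262 counts, and mitochondrial genes held 6.32% to 7.04% of them in the overexpression libraries and 6.71% to 9.29% in the control libraries. SOX5, whose exons the plasmid carries, had 24906 to 33577 counts with overexpression and 380 to 453 with the control plasmid (log2 fold change 5.88, SE 0.16, adjusted p 2.6e-06 by edgeR), so the group labels matched the delivered construct. The 8 hepatocyte and hepatoma markers, among them ALB with 47303 to 72311 counts and AFP with 131258 to 178850, were present in every library, with no call at an adjusted p under 0.05. Of 6 markers of other cells, VWF had 1 count in all, COL1A1 2 to 12 counts per library and PTPRC 9 to 23. The other 3, COL3A1, CD68 and PECAM1, had 76 to 111, 84 to 140 and 570 to 785 counts per library, and none of the 4 that were tested was called. Levels below are read counts scaled to a common library total (CPM) with library sizes scaled by the TMM method of edgeR, and differences are log2 fold changes of overexpression over control, so that negative values are lower with overexpression. In bulk RNA, fewer cells expressing a gene and less RNA per cell cannot be told apart.

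No transcript of the machinery passed the test between the groups. Of the 10 genes, 0 reached an adjusted p under 0.05 by edgeR, where 0.0399% of the 15055 genes tested did, and 0 reached an unadjusted p under 0.05, where 5.5% of all genes tested did. The count was also 0 by DESeq2 (4.38% of all genes at an unadjusted p and 0.186% at an adjusted p) and by limma on log2(FPKM + 1) (6.03% and 0.0426%). The fold change was below 0 for 8 of the 10 and above 0 for TARBP2 and TNRC6B, against 49.5% below 0 among all genes tested. The median over the 10 genes was -0.088 on the log2 scale and that over all genes tested was 0.0023. Leaving out overexpression replicate 1 brought the number below 0 to 5. All 10 of the 95% intervals lay within 2-fold in either direction, and 7 lay within 1.5-fold.

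**Figure D1:**
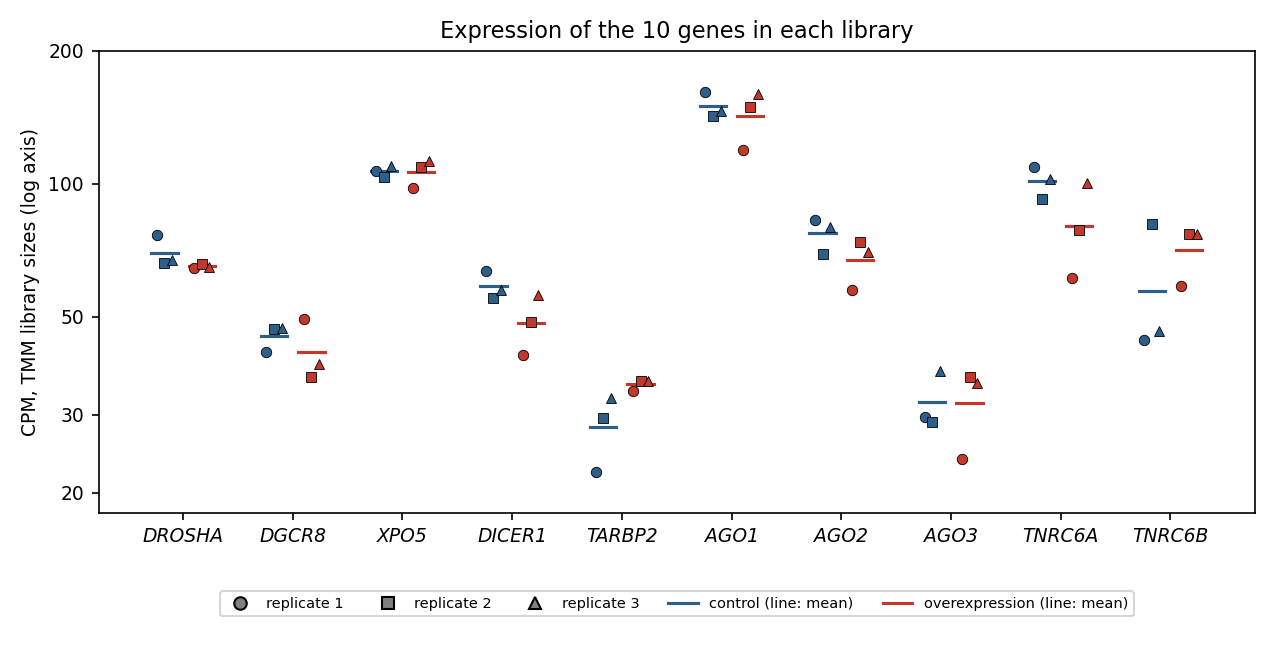
CPM on a log axis for each of the 10 genes in the 6 libraries, with controls in blue, overexpression in red, marker shape giving the replicate number and a line at each group mean. The groups overlap for 8 genes, overexpression replicate 1 is the lowest library for 7 genes, and the control libraries of TNRC6B are spread from 44.4 to 81.1 CPM.

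Neither gene of the microprocessor was called between the groups. DROSHA (ENSG00000113360, chr5:31400497-31532196, - strand), the nuclear RNase III, measured 64.4, 65.9 and 64.8 CPM with overexpression and 76.4, 66.1 and 67.1 CPM in controls (here and below in the order of replicates 1, 2 and 3). The overexpression libraries were all below the controls, but the margin to control replicates 2 and 3 was small and control replicate 1 stood above the rest. Groups that do not overlap were found for 12.9% of all genes tested and for 2 of the 10 genes, DROSHA and TARBP2. The means of DROSHA were 65.0 ± 0.749 CPM with overexpression and 69.9 ± 5.68 CPM in controls (SD, n = 3 each), and the log2 fold change was -0.10 (SE 0.093, 95% interval -0.32 to 0.11, adjusted p 0.833 by edgeR). Without control replicate 1 it was -0.033. The exact permutation test gave p = 0.1, two-sided, which is the smallest value 3 against 3 libraries allow.

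DGCR8 (ENSG00000128191, chr22:20080232-20111877, + strand), which holds the primary hairpin for DROSHA, had 49.5, 36.5 and 39.0 CPM with overexpression and 41.7, 46.8 and 47.1 CPM in controls. Overexpression replicate 1 was the highest of the 6 libraries and the other two overexpression libraries were the lowest, so the groups overlapped. The log2 fold change was -0.12 (SE 0.13, 95% interval -0.42 to 0.19, adjusted p 0.860 by edgeR). It was -0.26 without overexpression replicate 1, -0.031 without overexpression replicate 2 and -0.072 without overexpression replicate 3, and -0.31 without both libraries numbered 1. The share of DROSHA in the summed level of DROSHA and DGCR8 per kilobase was 59.6% ± 4.11 with overexpression and 59.2% ± 3.53 in controls (SD, n = 3 each), a difference smaller than either SD. Over all libraries this share was 55.0% to 63.3%. From the deposited FPKM values, whose length scaling is not given, it was 63.5% to 71.0%, so the share depends on the measure used.

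XPO5 (ENSG00000124571, chr6:43522330-43576075, - strand), the exporter of precursor hairpins, was the most even of the 10 between the groups. It had 97.9, 109 and 113 CPM with overexpression and 107, 104 and 110 CPM in controls, with overlapping groups. Its log2 fold change was -0.0027 (SE 0.090, 95% interval -0.21 to 0.20, adjusted p 0.996 by edgeR), and it was 0.055 without overexpression replicate 1. Exons of XPO5 share 348 bases with exons of POLR1C on the opposite strand, a gene with 1724 counts against 8018 for XPO5 over the 6 libraries. How strand was handled in the counting is not given in the sources used here, so reads from these bases cannot be told apart.

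The 2 subunits of the dicing complex had fold changes of opposite sign. DICER1 (ENSG00000100697, chr14:95086228-95158010, - strand), the cytoplasmic RNase III, had 40.9, 48.6 and 56.1 CPM with overexpression and 63.4, 55.3 and 57.5 CPM in controls. Overexpression replicate 3 fell among the controls and the other two lay below them. The means were 48.5 ± 7.58 and 58.7 ± 4.20 CPM (SD, n = 3 each), and the log2 fold change was -0.28 (SE 0.13, 95% interval -0.57 to 0.022, adjusted p 0.797 by edgeR). It was -0.17 without overexpression replicate 1, -0.15 with correction for transcript length and GC content and -0.11 without both libraries numbered 1.

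TARBP2 (ENSG00000139546, chr12:53500921-53506431, + strand) encodes the double-stranded RNA-binding partner of DICER1. It had 34.0, 35.8 and 35.9 CPM with overexpression and 22.2, 29.6 and 32.7 CPM in controls. Every overexpression library lay above every control library, and control replicate 1 was well below the rest. The means were 35.2 ± 1.08 and 28.2 ± 5.39 CPM (SD, n = 3 each). This gave a log2 fold change of 0.32 (SE 0.15, 95% interval -0.015 to 0.66, adjusted p 0.797 by edgeR), and without control replicate 1 it was 0.18. The permutation p of TARBP2 was 0.1 (exact, two-sided). PRKRA, the other double-stranded RNA-binding partner of DICER1, had a log2 fold change of 0.043 (SE 0.10, adjusted p 0.937 by edgeR), with 47.7 ± 3.32 and 46.3 ± 3.08 CPM (SD, n = 3 each).

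**Figure D2:**
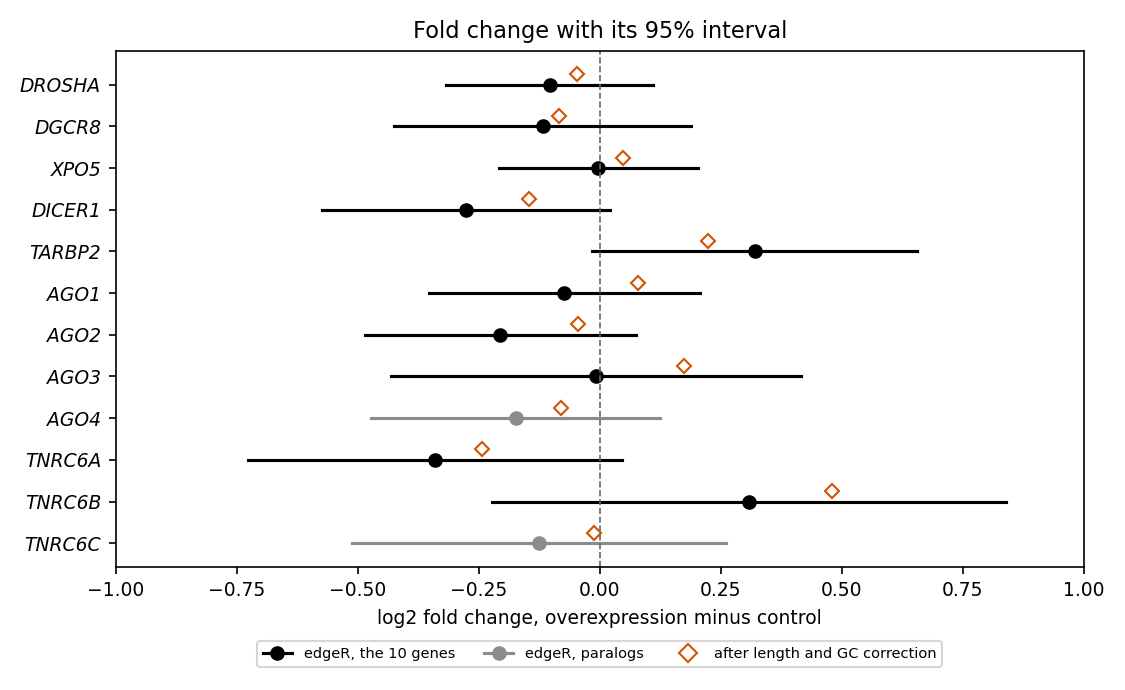
Log2 fold change (overexpression minus control) with its 95% interval from edgeR for the 10 genes in black and for the paralogs AGO4 and TNRC6C in grey, and open diamonds for the value after correction for transcript length and GC content. Every interval includes 0, and the corrected values of AGO1, AGO3 and XPO5 lie above 0.

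AGO1 and AGO3 are neighbours on chromosome 1 and are read in the same direction. AGO1 (ENSG00000092847) spans chr1:35869808-35930528 and AGO3 (ENSG00000126070) chr1:35930718-36072500 on the + strand, with 189 bases between them. AGO4 lies upstream at chr1:35808172-35857890, and 11917 bases separate it from AGO1. AGO1 had 119, 149 and 160 CPM with overexpression and 161, 142 and 146 CPM in controls. The lowest library was overexpression replicate 1 and the rest overlapped. The log2 fold change of AGO1 was -0.073 (SE 0.12, 95% interval -0.35 to 0.21, adjusted p 0.906 by edgeR), and without overexpression replicate 1 it was 0.042.

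AGO3, the argonaute with the lowest level per unit length, had 23.8, 36.6 and 35.4 CPM with overexpression and 29.6, 28.9 and 37.7 CPM in controls. Its groups overlapped, with overexpression replicate 1 again lowest. For AGO3 the log2 fold change was -0.0072 (SE 0.18, 95% interval -0.43 to 0.42, adjusted p 0.995 by edgeR), and without overexpression replicate 1 it was 0.17. AGO4 had 19.0 ± 0.660 CPM with overexpression and 21.4 ± 2.90 CPM in controls (SD, n = 3 each), and a log2 fold change of -0.17 (SE 0.13, adjusted p 0.805 by edgeR).

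AGO2 (ENSG00000123908, chr8:140520156-140635619, - strand) is the argonaute that can itself cut a fully paired target. It had 57.6, 73.6 and 70.0 CPM with overexpression and 83.0, 69.2 and 79.7 CPM in controls. Control replicate 2 fell among the overexpression libraries, so the groups overlapped. The means were 67.1 ± 8.43 and 77.3 ± 7.18 CPM (SD, n = 3 each). This corresponds to a log2 fold change of -0.21 (SE 0.12, 95% interval -0.48 to 0.074, adjusted p 0.797 by edgeR), and it was -0.11 without overexpression replicate 1 and -0.044 with correction for transcript length and GC content. No pair of argonaute genes shared 50 or more stretches of 31 bases in their annotated transcripts.

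Among the GW182 genes, TNRC6A and TNRC6B had fold changes of opposite sign and wide intervals. TNRC6A (ENSG00000090905, chr16:24729695-24827632, + strand) had 61.3, 78.6 and 100.3 CPM with overexpression and 109, 92.2 and 102 CPM in controls. The locus of TNRC6A, as deposited, differs from that in GENCODE 29, whose exon length was used for its level per kilobase below. Overexpression replicate 3 fell within the control range, and replicate 1 was far below it. The means were 80.0 ± 19.5 and 101 ± 8.57 CPM (SD, n = 3 each). The log2 fold change was -0.34 (SE 0.17, 95% interval -0.73 to 0.047, adjusted p 0.797 by edgeR), -0.18 without overexpression replicate 1 and -0.53 without overexpression replicate 3.

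TNRC6B (ENSG00000100354, chr22:40044817-40335808, + strand) had the widest spread within a group. It had 58.8, 76.9 and 77.2 CPM with overexpression and 44.4, 81.1 and 46.3 CPM in controls. Control replicate 2 was the highest of the 6 libraries and the other two controls were the lowest, and the coefficient of variation in controls was 36.0%, where the smallest in a group, that of DROSHA with overexpression, was 1.15%. For TNRC6B the log2 fold change was 0.31 (SE 0.23, 95% interval -0.22 to 0.84, adjusted p 0.805 by edgeR). It was 0.64 without control replicate 2, 0.16 without control replicate 1 and 0.18 without control replicate 3, and 0.48 with correction for transcript length and GC content. TNRC6C, the third GW182 gene, had 16.9 ± 3.15 CPM with overexpression and 18.4 ± 2.46 CPM in controls (SD, n = 3 each), and a log2 fold change of -0.12 (SE 0.17, adjusted p 0.882 by edgeR).

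Per kilobase of merged exons, XPO5 and AGO1 stood highest and AGO3 lowest. The mean level over the 6 libraries was 12.5 CPM per kilobase for XPO5 (range 11.5 to 13.2), 10.5 for AGO1 (8.58 to 11.6), 8.67 for DROSHA (8.28 to 9.82), 7.75 for TARBP2 (5.44 to 8.77) and 7.02 for TNRC6A (4.74 to 8.45). The lower levels, also in CPM per kilobase, were 5.94 for DGCR8 (4.99 to 6.76), 4.56 for AGO2 (3.64 to 5.24), 4.36 for DICER1 (3.33 to 5.16), 3.21 for TNRC6B (2.22 to 4.05) and 1.51 for AGO3 (1.12 to 1.78). In this order the ranges of every pair of neighbours overlapped except those of TNRC6B and AGO3. The median over all genes tested was 4.77 CPM per kilobase, which put XPO5 at the percentile 74.6 and AGO3 at 24.4. In the deposited FPKM values AGO1 came before XPO5. The lengths behind these values are not given in the sources used here. Worked back from counts, FPKM and summed counts, they would be 1.11 to 3.01 times the merged exon lengths. For TARBP2 this gives 12328 bases, more than its locus spans, so these figures cannot be read as gene lengths. With FPKM, TARBP2 moved from rank 4 to rank 6, DGCR8 from 6 to 8 and AGO2 from 7 to 5, so the order depends on the measure used.

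**Figure D3:**
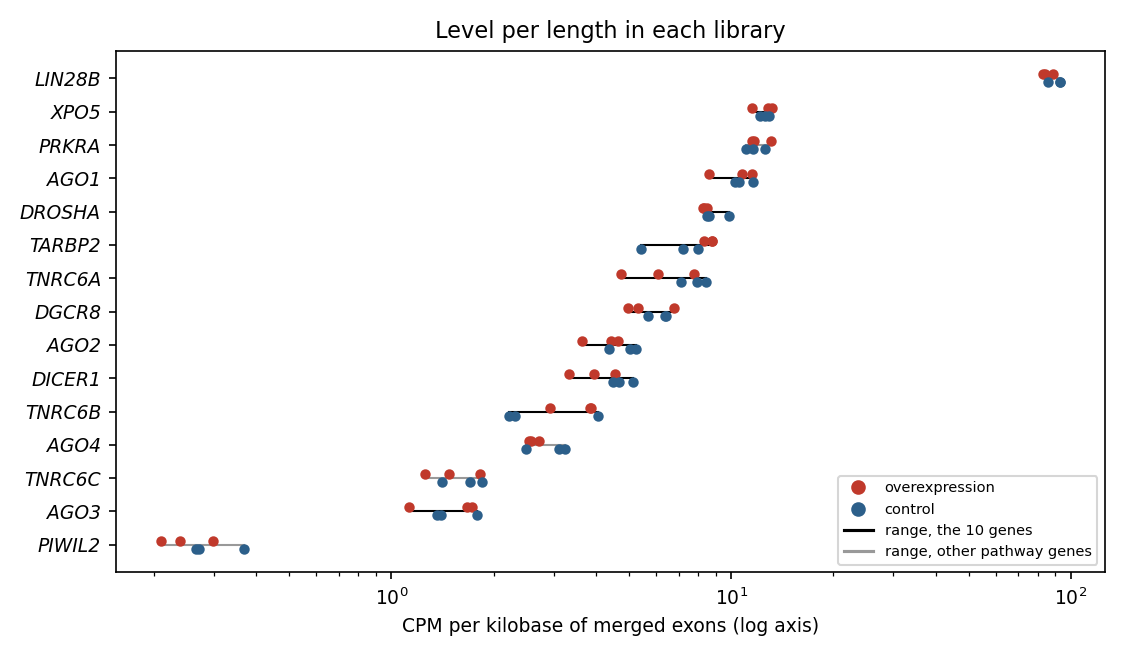
Level in CPM per kilobase of merged exons on a log axis in each library, for the 10 genes and for LIN28B, PRKRA, AGO4, TNRC6C and PIWIL2, with overexpression in red and control in blue. Levels of the 10 genes run from 1.12 to 13.2, and LIN28B lies above all of them at 82.5 to 92.7.

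AGO1 had a higher transcript level per unit length than the other argonautes combined in every library. Its share of the summed level of AGO1 to AGO4 per kilobase was 53.1% to 56.7%, followed by AGO2 with 21.8% to 25.4%, AGO4 with 12.6% to 16.3% and AGO3 with 6.51% to 8.98%. The share of AGO1 was 55.1% ± 1.40 with overexpression and 53.6% ± 0.493 in controls, and that of AGO2 was 22.8% ± 0.944 and 24.2% ± 1.24 (SD, n = 3 each). The ranges of each argonaute overlapped between the groups. The makeup of the GW182 family was less steady: TNRC6A held 53.1%, 53.3% and 57.7% with overexpression and 67.5%, 56.6% and 66.4% in controls. TNRC6B held 32.9%, 33.7% and 28.7% with overexpression and 17.7%, 32.2% and 19.4% in controls. Control replicate 2 had a makeup like that of the overexpression libraries, and TNRC6C stayed between 11.2% and 14.7% in all 6. The PIWI genes, the germline branch of the argonaute family, were scarce, with 118 counts for PIWIL2, 10 for PIWIL4, 6 for PIWIL3 and 0 for PIWIL1 over the 6 libraries.

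**Figure D4:**
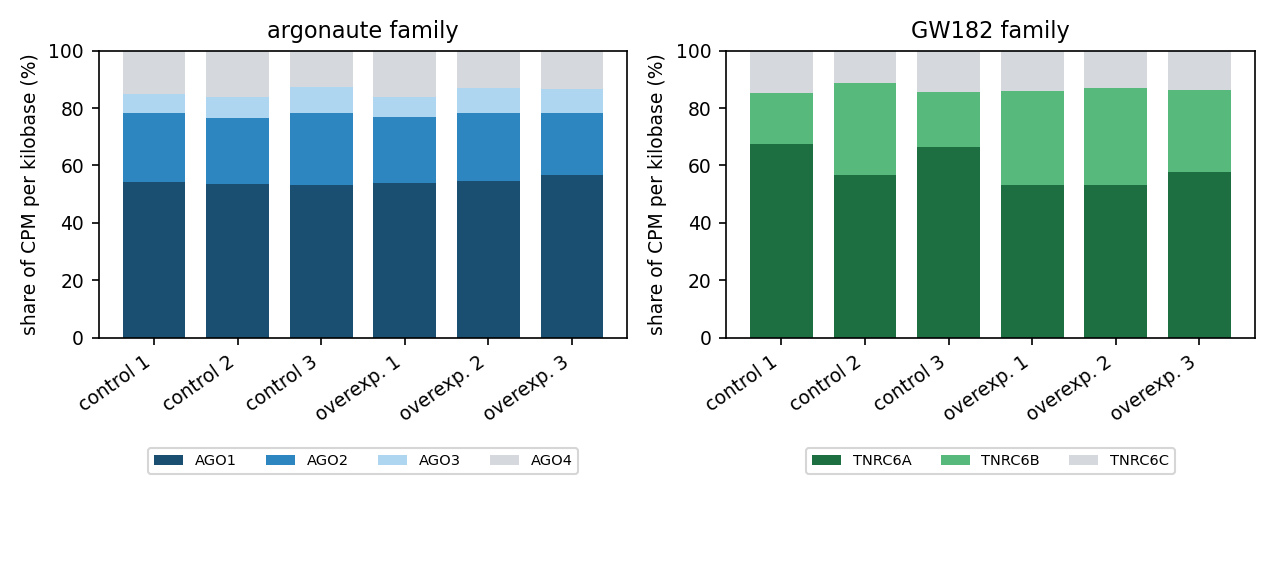
Stacked bars of the share, in percent of summed CPM per kilobase, held by AGO1 to AGO4 (left) and TNRC6A to TNRC6C (right) in each library. AGO1 holds 53.1% to 56.7% throughout, while TNRC6B ranges from 17.7% to 33.7% and is low in control replicates 1 and 3.

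Fold changes in these libraries moved with transcript length, and most of the 10 genes have long transcripts. When all genes tested were put into 5 groups of like size by their longest annotated transcript, the median log2 fold change was 0.098 in group 1, the shortest, and -0.094 in group 5, the longest, and 71.7% of genes in group 5 were below 0. AGO1, AGO2, AGO3, DICER1, TNRC6A and TNRC6B lie in group 5, with transcripts of 8438 to 19687 bases, and 5 of these 6 were below 0. DROSHA, DGCR8 and XPO5 lie in group 4, with 4695 to 5364 bases, where the median was -0.027. TARBP2, with 1867 bases, lies in group 2, where the median was 0.057, and it also falls in the highest of 5 groups of GC content.

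This trend was largest in the libraries numbered 1. The median deviation of the longest group from the mean of the 6 libraries was -0.12 on the log2 scale in overexpression replicate 1 and 0.12 in control replicate 1, and -0.0071 to 0.021 in the other 4 libraries. For the 10 genes the median deviation was -0.21 in overexpression replicate 1, the lowest library for 7 of them, and -0.030 to 0.11 in the other 5 libraries. Control replicate 1 had a median deviation of 0.076, below those of overexpression replicate 3 (0.11) and control replicate 3 (0.089). It was the highest library for 5 of the genes and the lowest for 2, TARBP2 and TNRC6B. Its deviations had both signs, from -0.48 for TARBP2 and TNRC6B to 0.29 for TNRC6A. The median of control replicate 1 therefore does not show how far single genes lay from the other libraries. With each library corrected for transcript length and GC content, the median log2 fold change of the 10 genes was 0.0023 and 5 were below 0. Without both libraries numbered 1, an alternative added after the data were seen, the median was 0.015 and 5 were below 0. The part of transcript length in the value of any single gene was not tested.

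**Figure D5:**
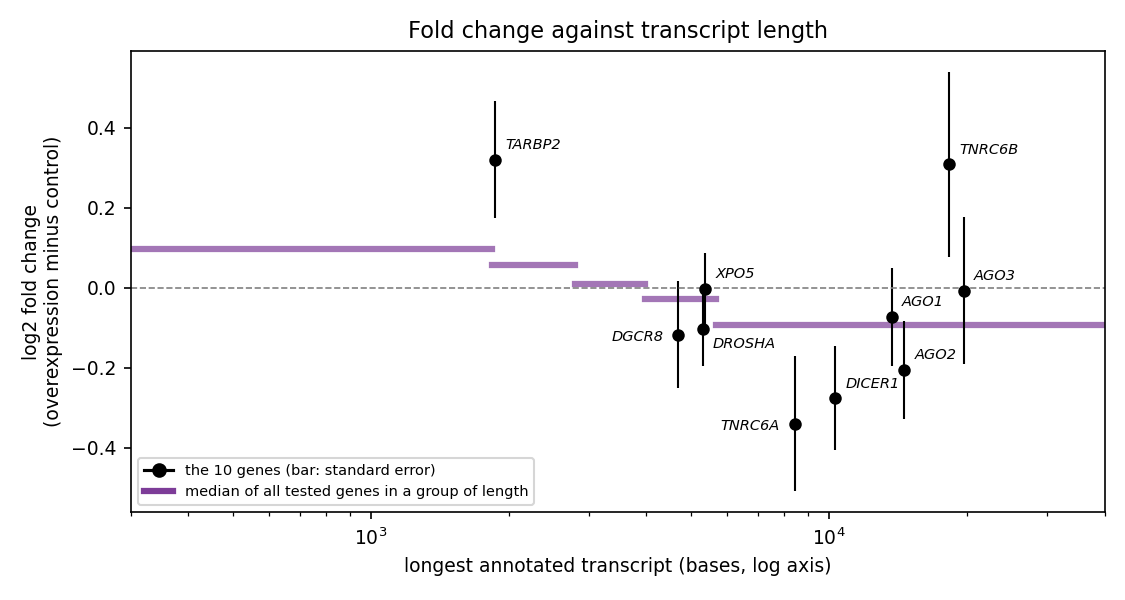
Log2 fold change (overexpression minus control) against the longest annotated transcript on a log axis, with points and standard error bars for the 10 genes and purple bars for the median of all genes tested in each of 5 length groups; the outermost bars run on past the axis. The medians fall from 0.098 to -0.094 with length, TARBP2 lies above the bar of its group, and TNRC6B lies above 0 among long transcripts.

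The wider pathway was read from 8 lists with 93 genes, 85 of them tested. edgeR called 0 of the 85, and 5 reached an unadjusted p under 0.05, all with negative fold changes, where 5.5% of all genes tested reached it. That number was 2 without control replicate 1, 1 without overexpression replicate 3 and 11 without control replicate 2. Groups did not overlap for 10 of the 85 that were lower with overexpression, ADAR, HSP90AA1 and CNOT1 among them. They also did not overlap for 4 that were higher, MCM7 among them. Among all genes tested 12.9% had groups without overlap. In all, 56 of the 85 were below 0 and 29 above, against 49.5% below 0 among all genes tested, with a median log2 fold change of -0.058. With the length and GC correction, 53 were below 0 and 32 above, with a median of -0.031, and 6 reached an unadjusted p under 0.05 in edgeR. Without both libraries numbered 1, 48 were below 0 and 37 above. DESeq2 called 1 of the 85, DNAJB1, an HSP40 cochaperone, where it called 0.186% of all genes tested. DNAJB1 had 132, 97.4 and 130.2 CPM with overexpression and 166, 183 and 208 CPM in controls. edgeR gave DNAJB1 a log2 fold change of -0.63 (SE 0.14, adjusted p 0.797).

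The cofactors of nuclear cutting had fold changes on both sides of 0. Of 12 genes, 8 were above 0 and 4 below, against 49.5% below 0 among all genes tested. Their median log2 fold change was 0.015, and none reached an unadjusted p under 0.05 in edgeR. The helicases DDX5 and DDX17, which bind the microprocessor, had log2 fold changes of 0.085 (SE 0.092) and -0.015 (SE 0.091). SRRT, which links the cap-binding complex to the microprocessor, had -0.077 (SE 0.11). Of the 5 cofactors of export and dicing, 4 were below 0, with a median of -0.18 and none at an unadjusted p under 0.05. RAN, the GTPase that loads exportin 5, had a log2 fold change of -0.18 (SE 0.15), which was -0.34 without control replicate 2 and -0.062 without control replicate 3. ADAR, which edits double-stranded RNA and can bind DICER1, had 367 ± 13.8 CPM with overexpression and 416 ± 45.5 CPM in controls (SD, n = 3 each), and its groups did not overlap (log2 fold change -0.18, SE 0.099, adjusted p 0.797 by edgeR). Control replicate 1 of ADAR, with 468 CPM, stood above the other controls with 393 and 387 CPM, and the value was -0.086 without it.

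Of the chaperones that open argonaute for loading, HSP90AA1 and DNAJB1 were 2 of 11 at an unadjusted p under 0.05, against 5.5% of all genes tested. Of the 11, 7 were below 0 and 4 above, against 49.5% below 0 among all genes tested. Their median log2 fold change was -0.058. HSP90AA1 had 2137 ± 167 CPM with overexpression and 2619 ± 334 CPM in controls (SD, n = 3 each), without overlap between the groups, and a log2 fold change of -0.29 (SE 0.11, adjusted p 0.797 by edgeR). Control replicate 1 was the highest library, and without it the value was -0.18.

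Effectors downstream of the GW182 proteins were below 0 for 22 of 32 genes, against 49.5% of all genes tested. Their median log2 fold change was -0.092. CNOT1, the scaffold of the CCR4-NOT deadenylase, had 340 ± 27.8 CPM with overexpression and 405 ± 46.4 CPM in controls (SD, n = 3 each), without overlap between the groups (log2 fold change -0.25, SE 0.11, adjusted p 0.797 by edgeR). Control replicate 1 of CNOT1, with 458 CPM, stood above the other controls with 374 and 382 CPM, and the value was -0.15 without it and -0.086 without both libraries numbered 1. CNOT1 and EIF4ENIF1, which binds the cap-binding protein eIF4E, were the 2 of the 32 at an unadjusted p under 0.05, against 5.5% of all genes tested. The deadenylase subunits PAN2 and PAN3 had log2 fold changes of -0.18 and -0.023, the helicase DDX6 had -0.028 and the exonuclease XRN1 had -0.20, and none of these 4 reached an unadjusted p under 0.05.

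Genes of microRNA tailing and turnover were below 0 for 11 of 14 tested, against 49.5% of all genes tested. Their median log2 fold change was -0.089. The cullin CUL3 was the 1 gene at an unadjusted p under 0.05 in edgeR, against 5.5% of all genes tested. ZSWIM8, the substrate receptor of the ligase that degrades argonaute on highly paired targets, had a log2 fold change of -0.058. The microRNA host transcripts were below 0 for 5 of 8 tested, with a median of -0.018 and none at an unadjusted p under 0.05. MIR17HG, the host of the cluster that holds miR-18a, had 5.90 ± 0.678 CPM with overexpression and 6.01 ± 0.690 CPM in controls (SD, n = 3 each), a difference within the SDs (log2 fold change -0.026, SE 0.18, adjusted p 0.981 by edgeR). MCM7, whose introns hold the miR-106b cluster, had 501 ± 32.5 and 440.0 ± 39.2 CPM (SD, n = 3 each), without overlap between the groups (log2 fold change 0.19, SE 0.098, adjusted p 0.797 by edgeR), and 0.12 without control replicate 1.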

How the data were processed

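RNA sequencing libraries of Huh7 cells (3 overexpression, 3 control) were grouped by sample title. The authors deposited 1 table, which gives raw read counts and FPKM values for every gene in each library. The submitters' processing notes name TopHat2 2.0.9 and hg38. The counting tool, strand handling and annotation release are not given in the sources used here. Overlapping genes are therefore uncertain, and multi-mapped reads may be split among copies.

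The deposited counts were tested with edgeR 4.0.16 under R 4.3.3 (genes kept by filterByExpr at a count minimum of 10, TMM scaling, quasi-likelihood F test on group, two-sided, Benjamini-Hochberg adjustment over 15055 genes). The biological coefficient of variation was 16.1%. Exact permutation tests used log2(CPM + 0.5). Levels per length were CPM divided by merged GENCODE 29 exon length. Named genes were the 10 core genes, 17 further pathway genes set by name, SOX5 and any listed gene past an adjusted p of 0.05; other genes were chosen after their values were seen. The 10 genes and all lists were chosen with earlier results of these data known.

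Alternatives were normalization by RLE or the upper quartile, DESeq2 1.42.0, no filter, a mean of at least 50 counts, limma 3.58.1 on the deposited FPKM values as log2(FPKM + 1) where 3 or more libraries reached 1 FPKM, a replicate block, spline correction of length and GC content (5 degrees of freedom) and leaving out libraries. On counts simulated for 15055 genes of this comparison, the test found 62.6% of 2-fold and 95% of 4-fold changes and called 13 of 14636 unchanged genes.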

Additional observations from a re-analysis of the deposited data

How the results depend on the processing

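None of the 10 genes passed an adjusted p of 0.05 under any alternative, and the lowest adjusted p was 0.669, without control replicate 3. Of the 150 fold changes of these genes under alternatives, 133 kept their sign and 17 reversed, all of them of AGO1, AGO3 and XPO5, whose values were near 0. The number of genes at an unadjusted p under 0.05 was 0 in the reported test, 1 with upper-quartile normalization and 1 with the replicate block (TARBP2 in both), 2 with no filter (TARBP2 and TNRC6A), 1 without both libraries numbered 1 (DGCR8) and 0 to 2 when 1 library was left out. The number with a fold change below 0 was 8 in the reported test and 6 with upper-quartile normalization, with no filter and with limma. It was 5 with the length and GC correction, 5 without both libraries numbered 1, and 5 to 8 when 1 library was left out. The replicate block changed no call, and libraries with the same number did not deviate together (correlations -0.029, -0.012 and -0.031), so the numbers were not taken as pairs.

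With upper-quartile normalization the log2 fold change was 0.0096 for AGO3 and 0.013 for XPO5, with no filter 0.00033 and 0.0050, and with limma 0.0062 and 0.018. With the length and GC correction it was 0.079 for AGO1, 0.17 for AGO3, 0.049 for XPO5, -0.0062 for PRKRA, 0.064 for DDX17, 0.026 for PAN3 and 0.054 for DDX6. Without both libraries numbered 1 it was 0.099 for AGO1, 0.11 for AGO3, 0.057 for XPO5, 0.081 for TNRC6C, 0.040 for DDX17, 0.17 for DDX6, 0.075 for ZSWIM8 and 0.075 for MIR17HG. DDX17 had 0.011 and DDX6 0.024 with limma, and DDX6 had 0.0052 with the replicate block. Leaving out 1 library gave -0.16 to 0.042 for AGO1, -0.12 to 0.17 for AGO3, -0.043 to 0.055 for XPO5, -0.016 to 0.098 for PRKRA, -0.080 to 0.031 for DDX17, -0.13 to 0.038 for SRRT, -0.15 to 0.043 for PAN3, -0.23 to 0.12 for DDX6, -0.14 to 0.052 for ZSWIM8 and -0.11 to 0.064 for MIR17HG. The cause was not tested. With 3 libraries a group, true changes can be missed, and on the simulated counts the test found only 62.6% of 2-fold changes. The intervals given are for single genes without adjustment and are not limits of detection.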

Other observations

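LIN28B, an RNA-binding protein that blocks the maturation of let-7 precursors, had a higher level per unit length than any of the 10 core genes, and was singled out after its values were seen. It had 495, 502 and 530 CPM with overexpression and 556, 512 and 555 CPM in controls, with overlapping groups and a log2 fold change of -0.089 (SE 0.081, adjusted p 0.833 by edgeR). Per kilobase its level was 82.5 to 92.7 CPM in the 6 libraries, against 11.5 to 13.2 for XPO5, the highest of the core genes. Its paralog LIN28A had 3 counts over the 6 libraries.

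DCP2, the decapping enzyme that removes the cap after deadenylation, was uneven between libraries and was also picked after its values were seen. It had 373, 307 and 1056 counts in overexpression replicates 1 to 3 and 228, 293 and 300 in the controls. Overexpression replicate 3 alone stood apart from the other libraries, and DCP2 was not called by edgeR (adjusted p 0.797, log2 fold change 0.91, SE 0.46).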
